A study of Mus musculus with 8 samples.

Results

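The genes of the Arp2/3 complex were described in ventricular RNA from mouse embryos that lacked Pkn2, the gene for protein kinase N2, in cardiomyocytes. The 9 genes Actr2, Actr3, Arpc1a, Arpc1b, Arpc2, Arpc3, Arpc4, Arpc5 and Arpc5l were taken by name from the 55291 gene symbols of the count table, and all 9 were also present in the table of length-scaled transcript abundances (TPM). They encode the 7 subunit positions of the complex, since the ARPC1 and the ARPC5 position can each be filled from either of a pair of paralogs. RNA was measured in 8 libraries from embryos of C57BL/6N background at E10.5. The 4 cKO libraries came from Pkn2 fl/fl embryos with the XMLC2-Cre transgene and the 4 control libraries from Pkn2 fl/fl littermates without Cre, so that both groups carried the floxed alleles. XMLC2-Cre is active in cardiomyocytes, and the other cells of the ventricle keep Pkn2 in both groups. The litter of each library was not given, and p-values measure the spread between these libraries only.

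The Arp2/3 complex starts new actin filaments as branches on the side of existing ones. ARP2 and ARP3, encoded by Actr2 and Actr3, resemble actin and form the first units of the branch, ARPC2 and ARPC4 hold the complex together and contact the mother filament, and ARPC1, ARPC3 and ARPC5 complete it. The complex has little activity until proteins of the WASP, WAVE and WASH families bind it, and it is known for building the actin networks of lamellipodia, endocytic sites and cell junctions. Complexes that hold ARPC1B and ARPC5L are known to branch actin more efficiently, and those branches last longer, than complexes with ARPC1A and ARPC5.

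Because several of these genes are copies of one another, the coding sequences were compared first, to see how far reads could tell them apart. Arpc1a and Arpc1b were identical at 71.7% of the aligned bases, Arpc5 and Arpc5l at 69.5%, and Actr3 and its paralog Actr3b, which is not among the 9 genes, at 76.3%. No window of 150 bases, the read length on the labels, was shared exactly within any of these pairs, and the longest identical run was 21 bases. The stretches of 90 bases below are printed from the reference transcripts because they show this divergence in the chains whose ratios are compared here. Capitals mark the bases that differ between the members of a pair, and positions count from 1 at the start codon. The stretch covers bases 16 to 105 of Arpc1a and Arpc1b, with 11 differences. It covers bases 94 to 183 of Arpc5 and 100 to 189 of Arpc5l, with 32 differences, and bases 1 to 90 of Actr3 and Actr3b, with 23 differences.
Arpc1a: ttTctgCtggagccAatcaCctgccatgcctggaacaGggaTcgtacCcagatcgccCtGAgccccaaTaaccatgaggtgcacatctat
Arpc1b: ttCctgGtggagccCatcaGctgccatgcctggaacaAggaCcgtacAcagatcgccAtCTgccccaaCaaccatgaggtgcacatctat
Arpc5: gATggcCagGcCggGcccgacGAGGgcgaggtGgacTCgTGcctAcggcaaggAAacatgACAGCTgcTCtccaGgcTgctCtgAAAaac
Arpc5l: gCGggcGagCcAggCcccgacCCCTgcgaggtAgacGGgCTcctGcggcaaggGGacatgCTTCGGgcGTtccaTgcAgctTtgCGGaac
Actr3: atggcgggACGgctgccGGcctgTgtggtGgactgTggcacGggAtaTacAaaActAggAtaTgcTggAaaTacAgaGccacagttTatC
Actr3b: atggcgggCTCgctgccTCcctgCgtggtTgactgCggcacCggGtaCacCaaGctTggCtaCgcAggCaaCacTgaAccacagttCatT

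Actr3 has in addition a processed pseudogene, Actr3-ps, on chromosome X (81820384 to 81822730, GRCm38). Its sequence was 98.8% identical to the Actr3 coding sequence and held 96 of the 1105 windows of 150 bases of Actr3 without a mismatch. The count table gave it 887 to 1190 counts per library, 6.16% to 7.05% of those of Actr3, so reads of Actr3 may be divided between both names.

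The ARPC1 paralogs are neighbours on chromosome 5, on the same strand and 5453 bases apart, with Arpc1a at 145083830 to 145108761 and Arpc1b at 145114215 to 145129699 (GRCm38). The 250 bases before their RefSeq starts are printed because this pair had the largest of the 3 paralog differences. Both stretches end inside the spans given above, because the RefSeq starts lie downstream of the starts of those spans. They were taken from RefSeq on GRCm38.p6, which matched 8 of the 9 genes. Capitals mark the motifs GGGCGG, a binding sequence of SP factors, and CCGGAAG, a binding sequence of ETS factors, on either strand, so that CCGCCC and CTTCCGG are the same motifs read from the other strand. The first line is chr5:145083619-145083868 and the second chr5:145114006-145114255, both on the plus strand.
Arpc1a promoter: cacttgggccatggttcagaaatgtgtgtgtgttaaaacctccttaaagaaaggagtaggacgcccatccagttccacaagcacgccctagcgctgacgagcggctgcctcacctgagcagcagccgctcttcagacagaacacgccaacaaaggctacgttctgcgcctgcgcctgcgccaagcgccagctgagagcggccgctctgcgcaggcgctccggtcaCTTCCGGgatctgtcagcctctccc
Arpc1b promoter: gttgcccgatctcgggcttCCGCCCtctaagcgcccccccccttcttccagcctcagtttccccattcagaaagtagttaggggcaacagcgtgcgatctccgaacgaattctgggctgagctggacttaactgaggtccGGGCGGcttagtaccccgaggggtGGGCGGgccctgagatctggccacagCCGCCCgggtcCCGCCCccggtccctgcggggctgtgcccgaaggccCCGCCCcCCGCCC

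The Arpc1b promoter held 7 matches of GGGCGG and 0 of CCGGAAG, whereas the Arpc1a promoter held 0 of GGGCGG and 1 of CCGGAAG. Their G and C contents were 68.4% and 60.8%, beside a median of 52.4% over 32851 promoters of this length. GGGCGG was found in 5 of the 8 promoters (Actr2, Actr3, Arpc1b, Arpc2 and Arpc5) and in 32.7% of all promoters. CCGGAAG was found in 5 of the 8 (Actr2, Actr3, Arpc1a, Arpc3 and Arpc4) and in 6.91% of all. CCAAT occurred in 2 of the 8, Actr2 and Arpc5, beside 33.9% of all, and the CArG box, the binding sequence of serum response factor, in Arpc4 alone, beside 1.47% of all. These matches describe letters in a window and not binding.

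Libraries held 47559845 to 56660938 counts, and each of the 9 genes had 2023 to 17852 counts in every library, so the spread between libraries and not counting error set the precision. Pkn2 was at 77.6 to 84.3 CPM (counts scaled to library size) in the cKO libraries and at 133 to 153 CPM in the control libraries, a log2 fold change of −0.83. A set of 10 cardiomyocyte marker genes summed to 38941 to 42082 CPM in cKO and 38748 to 42942 CPM in control libraries, which fits the labelled tissue. In bulk RNA, fewer cells of a type and less RNA per cell cannot be told apart.

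All 9 genes were expressed, and the highest of them exceeded the lowest by 7.36-fold per length (TPM, mean of the ratio over 8 libraries). Arpc2, the scaffold subunit, was highest, at 361 ± 11.7 TPM in control and 367 ± 6.07 TPM in cKO libraries (mean ± SD, n = 4 each). Actr3 followed at 215 ± 7.72 and 204 ± 10.4 TPM, and Arpc3, a small subunit next to ARP3, at 208 ± 6.76 and 218 ± 10.1 TPM. The levels of Actr3 and Arpc3 overlapped, with no fixed order between them.

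The middle of the order was formed by Arpc5 (129 ± 3.52 and 131 ± 9.47 TPM in control and cKO libraries) and Arpc1a (123 ± 3.04 and 125 ± 4.88 TPM), which overlapped as well. Actr2, the partner of Actr3 in the actin-like pair, had 108 ± 4.69 and 109 ± 5.81 TPM, and Arpc4, the other scaffold subunit, 92.6 ± 3.18 and 88.2 ± 2.74 TPM. The lowest were Arpc5l, at 57.6 ± 3.31 and 56.0 ± 3.20 TPM, and Arpc1b, at 47.5 ± 2.21 and 58.3 ± 10.3 TPM. Between neighbours in the order, Actr3 was above Arpc3 in 4 of 8 libraries, Arpc5 above Arpc1a in 6 of 8 and Arpc5l above Arpc1b in 6 of 8, and these 3 pairs overlapped. In the remaining 5 steps the higher gene was higher in 8 of 8 libraries. The order of the group means was the same in cKO except that Arpc3 stood above Actr3 and Arpc1b above Arpc5l, both pairs that overlapped.

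**Figure D1:**
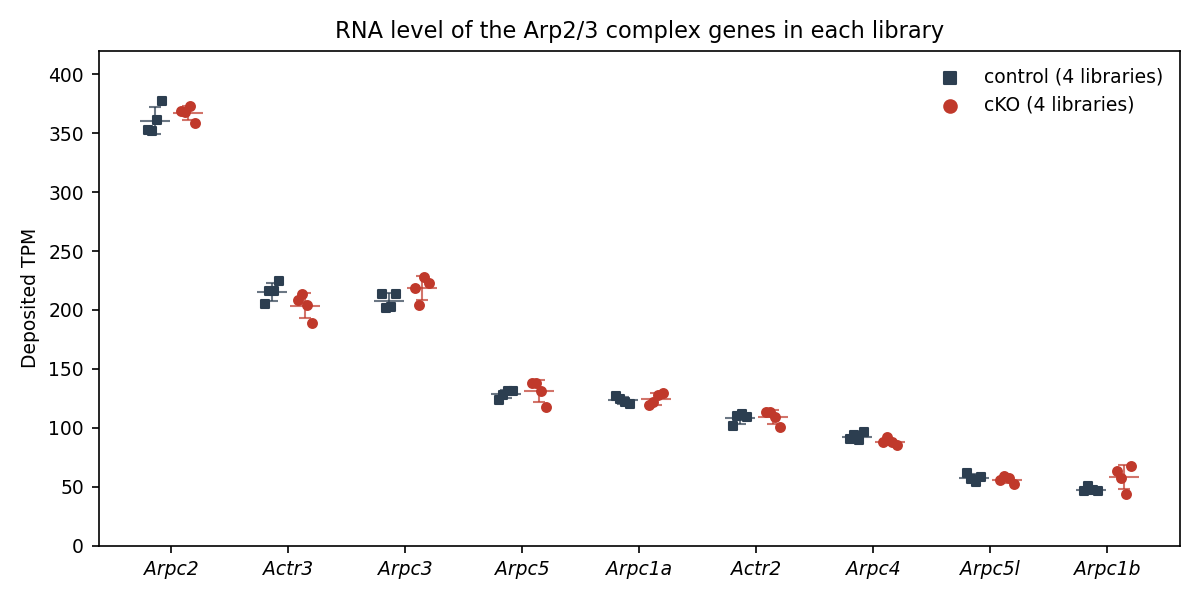
Deposited TPM (vertical axis, linear from 0) of the 9 Arp2/3 complex genes, ordered by control mean. Squares are the 4 control libraries and circles the 4 cKO libraries, with the mean and SD. Arpc2 stands highest at 361 TPM in controls, and Arpc1b ranges from 44.2 to 67.9 TPM among cKO libraries and from 46.0 to 50.7 TPM among controls.

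Summed by position, with paralogs added, the level of RNA was highest for ARPC2 and lowest for ARPC4, with a ratio of 3.89 in control and 4.17 in cKO libraries. ARPC1 had 171 ± 4.02 TPM in control and 183 ± 10.5 TPM in cKO libraries, and ARPC5 186 ± 2.04 and 187 ± 12.2 TPM. The scaffold subunits ARPC2 and ARPC4, which pair within the complex, thus stood at the opposite ends of the order in RNA. The 9 genes together made up 1342 ± 23.4 TPM in control and 1357 ± 22.2 TPM in cKO libraries, 0.136% of all transcripts over the 8 libraries, and the groups overlapped.

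None of the 9 genes was called different between cKO and control libraries. In the edgeR quasi-likelihood test over 26820 genes, 0 of 9 had an adjusted p of at most 0.05, beside 0.858% of all genes tested (0.365% with a fold change of at least 1.5 as well), and 0 of 9 had an unadjusted p under 0.05, beside 12.8%. DESeq2 and limma-voom also called 0 of 9. The groups overlapped for 9 of 9, where 6.91% of all genes tested had groups without overlap. Fold changes were small: 3 genes were nominally higher and 6 lower, with log2 values from −0.11 (Actr3) to 0.14 (Arpc1b) and a median of −0.016, beside −0.00085 over all genes tested. The 95% confidence intervals of the 9 genes lay between 85.04% and 122% of the control level.

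**Figure D2:**
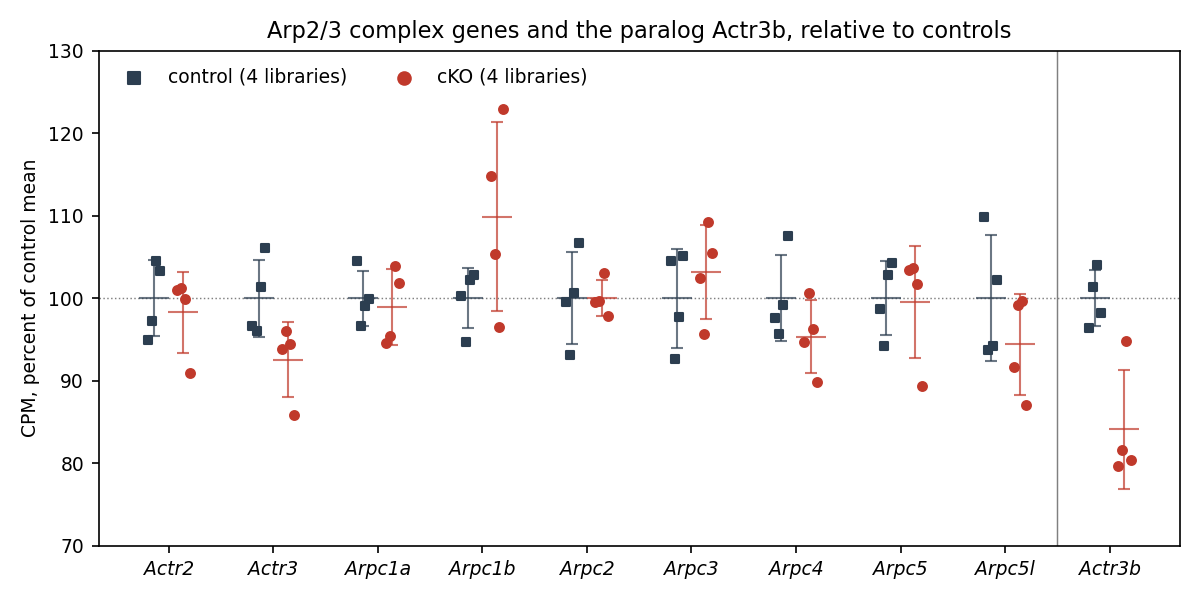
CPM of the 9 genes and of Actr3b, as percent of the control mean (vertical axis from 70 to 130). Squares are control and circles cKO libraries, with the mean and SD of 4 each. The groups overlap for all 9 members, while the cKO libraries of Actr3b, right of the line, lie below its controls.

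Of the actin-like pair, Actr3 had the largest nominal decrease. It was measured at 291.7, 298.7, 293.7 and 267.0 CPM in cKO libraries 1 to 4 and at 300.4, 298.6, 315.4 and 329.8 CPM in control libraries 1 to 4. Of the cKO libraries, 3 were below every control, and the values of cKO 2 and control 2 lay next to each other. The log2 fold change was −0.11 (95% interval −0.23 to 0.01, edgeR adjusted p = 0.441). It was −0.107 with an adjusted p of 0.479 when the counts of Actr3-ps were added to Actr3, and Actr3-ps itself had a log2 fold change of −0.04 (adjusted p = 0.919). Actr2 was at 225.7, 226.3, 223.2 and 203.1 CPM in cKO and 212.1, 217.3, 233.5 and 230.8 CPM in control libraries, with a log2 fold change of −0.03 (−0.15 to 0.10). Its value in cKO 4 was below all others, and the remaining cKO libraries lay within the control range.

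For the scaffold subunits and Arpc3 the cKO and control ranges overlapped. Arpc2 was at 280 to 295 CPM in cKO and 266 to 305 CPM in control libraries, with a log2 fold change of 0.00 (−0.12 to 0.12). Arpc4 was at 78.0 to 87.4 CPM in cKO and 83.0 to 93.4 CPM in control libraries, with a log2 fold change of −0.07 (−0.19 to 0.05). The span of Arpc4 shares 1189 bases with Ttll3 on the same strand, and Ttll3 was at 4.37 CPM. Arpc3 was at 103 to 117 CPM in cKO and 99.4 to 113 CPM in control libraries, with a log2 fold change of 0.05 (−0.08 to 0.17).

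Of the ARPC1 paralogs, Arpc1b was the gene with the largest nominal increase and the least even cKO group. Its level was 91.1, 83.6, 76.6 and 97.5 CPM in cKO libraries 1 to 4 and 79.6, 75.2, 81.1 and 81.6 CPM in control libraries 1 to 4. The cKO libraries 1, 2 and 4 were above every control, and cKO 3 lay within the control range. The SD was 9.10 CPM in cKO and 2.91 CPM in control libraries. The log2 fold change was 0.14 (−0.01 to 0.28, edgeR adjusted p = 0.439), and an exact two-sided permutation test of the CPM gave p = 0.200, where the smallest possible p is 0.0286. Leaving out cKO 3 gave a log2 fold change of 0.20 with an adjusted p of 0.119, and leaving out cKO 4 gave 0.09 with an adjusted p of 0.693.

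Arpc1b differed more on the deposited TPM scale. There it was at 63.6, 57.4, 44.2 and 67.9 TPM in cKO and 46.0, 50.7, 47.0 and 46.2 TPM in control libraries, and limma on log2(TPM + 1) gave a log2 fold change of 0.27 with an adjusted p of 0.550. The same 3 cKO libraries were above every control on both scales. The span of Arpc1b shares 931 bases with Pdap1 on the opposite strand. The library kit does not mark strand, and reads from exons that both genes cover cannot be told apart. Pdap1 was at 151 to 170 CPM in cKO and 160 to 201 CPM in control libraries (log2 fold change −0.15, adjusted p = 0.383).

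Arpc1a did not follow its paralog. It was at 109.0, 109.9, 119.7 and 117.3 CPM in cKO and 120.4, 111.3, 114.1 and 115.0 CPM in control libraries, with a log2 fold change of −0.02 (−0.13 to 0.10). Over the 8 libraries the Pearson correlation of log2 CPM between Arpc1a and Arpc1b was −0.170 and Spearman's rho −0.310. The ratio of Arpc1b to Arpc1a counts, which needs no scaling between libraries, was 0.836, 0.761, 0.640 and 0.832 in cKO and 0.661, 0.676, 0.711 and 0.710 in control libraries. As above, 3 cKO libraries exceeded all controls and cKO 3 was below them. The log2 ratio was higher in cKO by 0.147 ± 0.094 (SE), with an exact permutation p of 0.171 and 0.257 after Benjamini-Hochberg adjustment over the 3 ratios. In TPM, Arpc1b made up 31.7 ± 4.24% of the pair in cKO and 27.8 ± 0.970% in control libraries.

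Of the ARPC5 paralogs, Arpc5 was at 144.6, 145.0, 142.2 and 125.0 CPM in cKO and 138.1, 131.8, 143.8 and 145.8 CPM in control libraries, a log2 fold change of −0.01 (−0.14 to 0.12). Arpc5l was at 38.9 to 44.6 CPM in cKO and 42.0 to 49.2 CPM in control libraries, a log2 fold change of −0.08 (−0.23 to 0.06). The values of both genes were lowest in cKO 4. The ratio of Arpc5l to Arpc5 counts was 0.284, 0.306, 0.314 and 0.311 in cKO and 0.356, 0.318, 0.293 and 0.314 in control libraries. The groups overlapped, with a log2 difference of −0.074 ± 0.067 (SE, exact permutation p = 0.343, adjusted p = 0.343), and Arpc5l made up 29.9 ± 0.887% of the TPM of the pair in cKO and 30.9 ± 1.74% in control libraries.

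**Figure D3:**
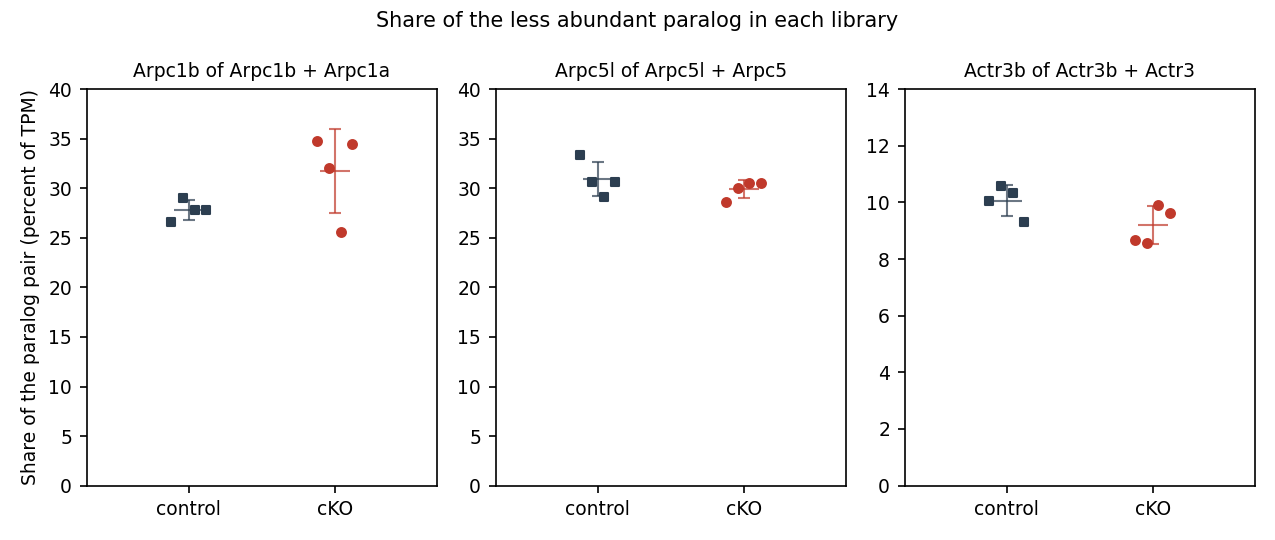
Share of the less abundant paralog in the TPM of its pair (vertical axes in percent from 0, the third with its own scale), for the 4 control (squares) and 4 cKO libraries (circles) with mean and SD. Arpc1b ranges from 25.6% to 34.8% among cKO libraries and from 26.6% to 29.0% among controls.

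Actr3b encodes a second form of ARP3 that is known mainly from brain, and it lies outside the 9 genes. It was at 21.3, 21.8, 25.4 and 21.5 CPM in cKO and at 25.8, 27.1, 27.8 and 26.3 CPM in control libraries. Every cKO library was below every control, which held in this direction for 3.77% of all genes tested. The log2 fold change was −0.25 (−0.40 to −0.10), with an unadjusted p of 0.00316 and an adjusted p of 0.120 in edgeR, and the adjusted p was 0.0420 in DESeq2. It was 0.142 in limma-voom and 0.338 on log2(TPM + 1). With single libraries left out it was 0.0270 without cKO 3, the highest cKO library (log2 fold change −0.31), and 0.226 to 0.345 in the other 7 cases. Relative to Actr3 the difference was smaller: the ratio of counts was 0.0730, 0.0730, 0.0864 and 0.0806 in cKO and 0.0858, 0.0909, 0.0883 and 0.0796 in control libraries. Those groups overlapped, with a log2 difference of −0.140 ± 0.072 (SE, exact permutation p = 0.143, adjusted p = 0.257), and Actr3b made up 9.19 ± 0.671% and 10.1 ± 0.553% of the TPM of the pair in cKO and control libraries.

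The genes whose log2 CPM over the 8 libraries was most like that of Arpc1b, among 9857 genes of at least 10 CPM, were Rell1 (Pearson r = 0.993, Spearman's rho = 1), Myc (0.983 and 0.976) and Sox13 (0.982 and 0.952). They were selected as the highest of all these correlations, so the values are a description without a test. Myc, a transcription factor of growth, was at 34.7, 20.6, 15.9 and 44.6 CPM in cKO and 16.7, 14.1, 18.02 and 17.1 CPM in control libraries. As for Arpc1b, cKO 1 and 4 were highest and cKO 3 lay within the control range. Without the 2 libraries farthest from the median of Arpc1b, r was 0.982 for Rell1, 0.935 for Myc and 0.909 for Sox13. None of the 3 was called between the groups (edgeR adjusted p = 0.426, 0.104 and 0.494).

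Around the complex, 60 genes of activators, inhibitors and actin supply were measured and all were tested. Of these, 1 was called higher in cKO, Abi3, and 0 lower, beside 0.515% and 0.343% of all genes tested. At an unadjusted p under 0.05, 14 were higher and 5 lower, beside 6.61% and 6.20% of all genes tested. The groups did not overlap for 7 genes higher and 2 lower in cKO, beside 3.14% and 3.77% of all genes tested. The median log2 fold change of the 60 was 0.015. The 10 genes with a mean under 10 CPM had a median of 0.71, with 8 of 10 higher in cKO, and the 50 genes of at least 10 CPM a median of 0.0035, with 25 higher. All 9 members belong to the more abundant range, in which the median over the 9858 genes tested was −0.023.

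**Figure D4:**
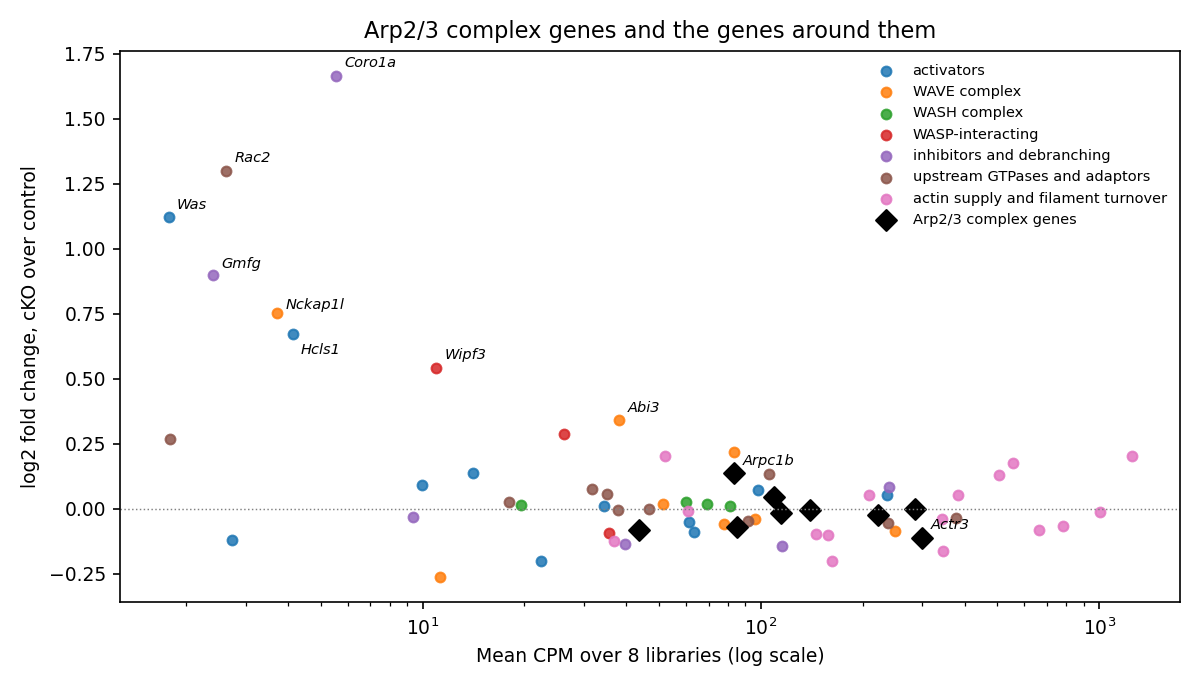
Log2 fold change of cKO over control (vertical axis) against mean CPM over 8 libraries (log axis) for the 60 genes around the complex, coloured by list, and the 9 members (black diamonds). The members lie between −0.11 and 0.14, while the genes under 10 CPM reach 1.67 (Coro1a).

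Among the 8 genes of the WAVE complex, which passes Rac signals on to Arp2/3, Abi3 was at 44.3, 39.7, 39.4 and 46.6 CPM in cKO and 33.4, 32.6, 32.8 and 35.5 CPM in control libraries. Every cKO library was above every control, which held in this direction for 3.14% of all genes tested. Its log2 fold change was 0.34 (0.20 to 0.48, edgeR adjusted p = 0.0253). The abundant members Nckap1, at 241 ± 9.44 CPM in cKO libraries and 256 ± 5.87 CPM in controls, and Brk1, at 94.6 ± 5.30 and 97.2 ± 6.68 CPM, had log2 fold changes of −0.09 and −0.04 and were not called. At an unadjusted p under 0.05, 3 of the 8 were higher and 1 lower, beside 6.61% and 6.20% of all genes tested. The higher genes were Abi3, Nckap1l (log2 fold change 0.75, edgeR adjusted p = 0.274) and Cyfip1. Cyfip1 was at 89.7 ± 9.20 CPM in cKO libraries and 77.1 ± 5.54 CPM in controls (0.22, edgeR adjusted p = 0.190). The lower gene was Cyfip2 (−0.26, edgeR adjusted p = 0.249). The span of Abi3 shares 5194 bases with Gngt2 on the opposite strand, which was at 20.8 to 29.7 CPM in cKO and 16.9 to 19.3 CPM in control libraries (log2 fold change 0.39, adjusted p = 0.0895), and reads from exons of both cannot be told apart. The call of Abi3 was lost on the TPM scale (adjusted p = 0.215 with a pseudocount of 1) and without cKO 1 (0.0789) or control 1, 2, 3 or 4 (0.0858, 0.0659, 0.0929 and 0.0622).

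Of the 11 activators, 7 were nominally higher and 0 called, and at an unadjusted p under 0.05 there were 2 higher and 1 lower. The lower gene was Wasf1, at 20.8 ± 1.15 CPM in cKO libraries and 23.9 ± 0.658 CPM in controls (log2 fold change −0.20, edgeR adjusted p = 0.188). Every cKO library of Wasf1 was below every control. Cttn, which stabilises branches, was at 240 ± 8.09 CPM in cKO libraries and 231 ± 11.3 CPM in controls, and Wasf2, a WAVE protein of many tissues, at 100.2 ± 6.37 and 95.4 ± 3.74 CPM. Hcls1, the cortactin of blood cells, was at 5.07 ± 1.69 and 3.18 ± 0.418 CPM (log2 fold change 0.67, adjusted p = 0.138), and its groups did not overlap. In the WASH complex, which acts on endosomes, 4 of 4 genes were nominally higher with log2 fold changes of 0.009 for Washc5, 0.018 for Washc2 and 0.027 for Washc4. Of the 3 WASP-interacting genes, Wipf1 (28.8 ± 3.56 and 23.6 ± 1.54 CPM, log2 fold change 0.29, adjusted p = 0.128) and Wipf3 (13.0 ± 2.91 and 8.95 ± 0.874 CPM, 0.54, adjusted p = 0.0811) had groups without overlap. In this direction 3.14% of all genes tested had such groups. Wipf2 was at 34.3 ± 2.42 CPM in cKO libraries and 36.6 ± 1.79 CPM in controls.

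Of the 7 inhibitors and debranching factors 0 were called, with 2 higher and 1 lower at an unadjusted p under 0.05. The higher genes were Coro1a and Gmfg (log2 fold change 0.90, edgeR adjusted p = 0.173). The lower gene was Arpin, at 37.8 ± 2.18 CPM in cKO libraries and 41.5 ± 1.35 CPM in controls (−0.14, edgeR adjusted p = 0.364). Coro1c, a coronin of many tissues, was at 245 ± 14.7 CPM in cKO libraries and 232 ± 12.9 CPM in controls, and Gmfb, which removes branches, at 109 ± 8.94 and 121 ± 9.37 CPM. Coro1a, the coronin of blood cells, was at 13.5, 5.80, 3.19 and 11.3 CPM in cKO and 1.64, 5.25, 2.16 and 1.66 CPM in control libraries, a log2 fold change of 1.67 (adjusted p = 0.0661). Among the 11 upstream GTPases and adaptors 0 were called and 1, Rac2, had an unadjusted p under 0.05. Cdc42 (373 ± 19.7 and 382 ± 12.2 CPM) and Rac1 (233 ± 6.16 and 242 ± 6.51 CPM) had log2 fold changes of −0.04 and −0.05. Rac2, the Rac of blood cells, measured 6.49, 2.43, 2.18 and 3.84 CPM in cKO libraries, and 0.979, 2.86, 1.31 and 0.942 CPM in controls (log2 fold change 1.30, adjusted p = 0.111). For Coro1a and Rac2, control 2 was the highest control and overlapped with cKO libraries.

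Of the 16 genes of actin supply and filament turnover, 6 were nominally higher and 0 called, with 4 higher and 2 lower at an unadjusted p under 0.05. Actb, the substrate of the complex as beta-actin, was at 1392, 1338, 1205 and 1402 CPM in cKO and 1154, 1155, 1128 and 1199 CPM in control libraries, and the groups did not overlap (log2 fold change 0.20, adjusted p = 0.130). Twf2, which binds actin monomers, was at 55.6 ± 3.29 and 48.3 ± 2.0 CPM (0.20, adjusted p = 0.127), also without overlap. Actg1 likewise had no overlap, at 590 ± 31.4 CPM in cKO libraries and 522 ± 19.2 CPM in controls (0.18, edgeR adjusted p = 0.177). Cap2 was lower without overlap, at 326 ± 19.1 CPM in cKO libraries and 364 ± 16.8 CPM in controls (−0.16, edgeR adjusted p = 0.239). Cfl1, the cofilin that severs old filaments, was at 1004 ± 53.5 CPM in cKO libraries and 1012 ± 55.1 CPM in controls (log2 fold change −0.01). Without cKO 3, in which Actb was lowest among the cKO libraries, 9 of the 60 genes were called, Abi3, Actb, Coro1a, Hcls1, Rac2, Was, Wipf1 and Wipf3 as higher and Cfl2 as lower, and 0 of the 9 members. In that comparison 1.99% of all genes tested were called higher and 0.83% lower.

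Of the marker lists for other cells, those of endothelial cells and macrophages held called genes, where 0.515% of all genes tested were called higher and 49.8% had a positive fold change. At an unadjusted p under 0.05, 6.61% of all genes tested were higher and 6.20% lower. The 12 endothelial and endocardial markers summed to 1802 to 2230 CPM in cKO and 1410 to 1666 CPM in control libraries. Of these markers, 12 of 12 were higher, 11 at an unadjusted p under 0.05, and 6 were called. The 14 macrophage markers summed to 60.6 to 95.04 CPM and 37.9 to 50.05 CPM, and Tyrobp was at 0 counts in 1 library. Here 14 of 14 were higher, 13 at an unadjusted p under 0.05, and 3 were called. A large part of the macrophage sums was Lyz2, which was not called. It was at 28.1 to 45.9 CPM in cKO libraries, highest in cKO 3, and at 26.7 to 35.6 CPM in control libraries. The 6 megakaryocyte and platelet markers summed to 35.8 to 119 CPM and 22 to 56.1 CPM, with 6 of 6 higher and 0 called (5 at an unadjusted p under 0.05), and Gp1bb was at 0 counts in 3 libraries. These platelet sums overlapped between the groups, as did those of the 7 erythroid markers (1350 to 4756 CPM in cKO, 1482 to 4600 CPM in control), of which 7 were higher, and of the 5 cushion mesenchyme markers (141 to 168 and 130 to 160 CPM), of which 3 were higher. Neither list had a member at an unadjusted p under 0.05. Of the 6 epicardial markers (305 to 472 and 394 to 417 CPM) 5 were lower and 0 called, 2 of them at an unadjusted p under 0.05. These were Aldh1a2 (log2 fold change −0.59, adjusted p = 0.0666) and Tbx18 (−0.30, adjusted p = 0.104). Tbx18 was below every control in every cKO library, which held in this direction for 3.77% of all genes tested. The 3 hepatic markers tested summed to 0.456 to 1.66 CPM in cKO libraries and to 24.98, 1.20, 4.24 and 1.66 CPM in controls 1 to 4, so that control 1 stood apart. All 3 were lower at an unadjusted p under 0.05 and 0 were called, and Alb was at 0 counts in 7 libraries.

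The endothelial sum was 2143, 1809, 1802 and 2230 CPM in cKO libraries 1 to 4, highest in cKO 1 and 4, the libraries in which Arpc1b was highest too. Among the cKO libraries, cKO 1 and 4 also had the highest platelet sums (63.9, 50.8, 35.8 and 119 CPM in cKO 1 to 4). The same held for the erythroid sums (3561, 1350, 2751 and 4756 CPM). In contrast, cKO 1 had the lowest epicardial and cushion mesenchyme sums of the cKO libraries, and cKO 4 the lowest cardiomyocyte sum. The macrophage sum was highest in cKO 1, at 95.04 CPM, as were Coro1a and Rac2. The part of these cell types in the values of Arpc1b, Abi3 and the genes of blood cells was not tested.

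**Figure D5:**
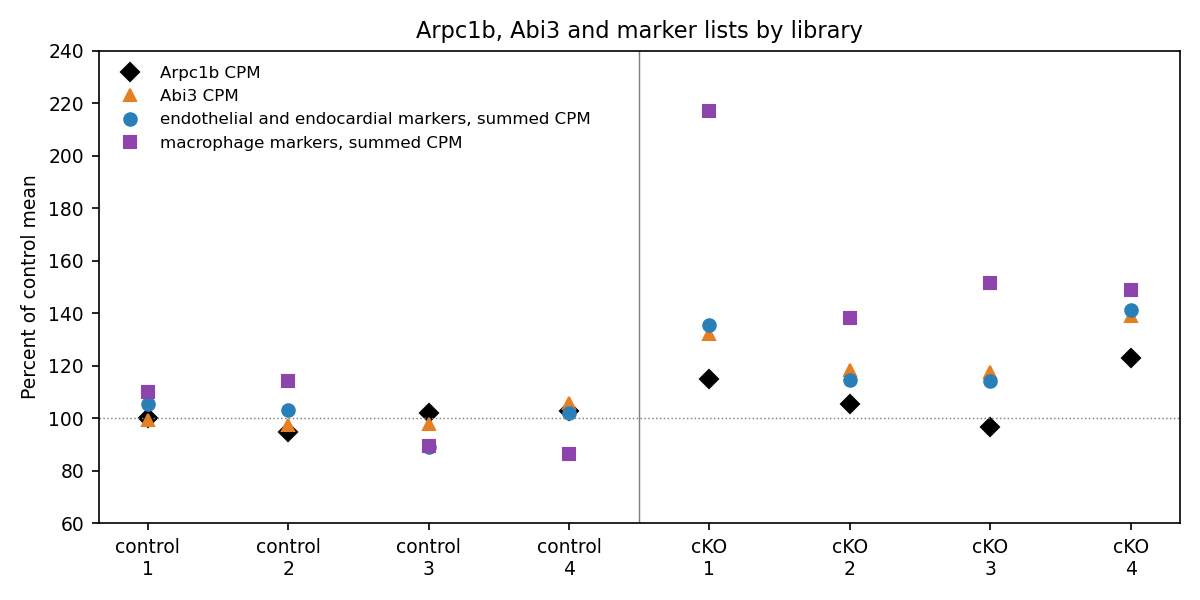
Arpc1b and Abi3 CPM and the summed CPM of the endothelial and macrophage marker lists in each library, as percent of the control mean (vertical axis from 60 to 240). In cKO libraries 1 and 4, right of the line, Arpc1b, Abi3 and the endothelial markers are highest, and in cKO 3 Arpc1b is within the control range.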

How the data were processed

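RNA from ventricular tissue of 8 samples was sequenced as poly(A)-selected libraries. The count table that the authors deposited holds unnormalized whole numbers for each symbol, and their TPM table holds values they had scaled by gene length and to a common total. The methods name the nf-core/rnaseq workflow with GRCm39, and the submitters' processing notes list Trim Galore 0.6.7, HISAT2 2.2.1, StringTie 2.2.1 and featureCounts. The strand setting is not given in the sources used here. Gene positions in the TPM table are those of GRCm38 and are given as such. No column was left out. The members and lists were chosen with earlier results of these data known.

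Genes with fewer than 8 counts in total were left out, as in the methods, and the other 26820 entered a quasi-likelihood model of edgeR 4.0.16 (R 4.3.3) with condition as its single term and TMM scaling. P-values were adjusted by Benjamini-Hochberg over all of them, with a call at an adjusted p of at most 0.05. CPM values use TMM-scaled library sizes. Paralog ratios were tested with exact two-sided permutation tests over libraries. Alternatives were DESeq2 1.42.0, limma-voom (limma 3.58.1), DESeq2 size factors in edgeR, no filter, filterByExpr, limma on log2(TPM + 1) and log2(TPM + 0.1), the replicate number as a block and each library left out in turn. Adding the counts of Actr3-ps to Actr3 was chosen after seeing the data. The scripts were tested on simulated data. No pair of libraries of a group was as close as copies of 1 library would be, with a chi-square statistic per degree of freedom of 12.0 to 39.1 over 12 pairs.

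Named genes were the 9 members, Actr3b, Pkn2, any called gene of the pathway lists and, in each list, the 2 genes of highest mean CPM and the gene with the smallest unadjusted p, and the 3 genes most like Arpc1b. The genes Actg1, Aldh1a2, Arpin, Cap2, Cfl2, Cyfip1, Cyfip2, Gmfg, Lyz2, Nckap1l, Tbx18, Was and Wasf1, and the genes that overlap a named gene, were named after their values were seen. Coding sequences came from the reference transcripts and promoters from RefSeq.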

Additional observations from a re-analysis of the deposited data

Results flagged for a closer look

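In each group of 4 libraries, a library was singled out where its gap to the nearest other library exceeded Dixon's 95% critical value for the range of the group. Of 70 groups of values examined, 7 held such a library, and chance alone singles out about 1 in 20. Among the members, Actr2 was at 203.08 CPM in cKO 4, where the other cKO libraries were at 223 to 226 CPM. Arpc5 was at 125.03 CPM in the same library, beside 142 to 145 CPM in the others. The paralog Actr3b was at 25.379 CPM in cKO 3 and at 21.3 to 21.8 CPM in the other cKO libraries. Cttn was at 227.64 CPM in cKO 3, beside 242 to 245 CPM in the others, and Washc5 at 77.155 CPM in cKO 4, beside 82.0 to 82.9 CPM. Among control libraries, Gmfb was at 134.94 CPM in control 3, beside 116 to 117 CPM, and Coro1a at 5.2475 CPM in control 2, beside 1.64 to 2.16 CPM.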

How the results depend on the processing

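The number of the 9 members called was 0 in all 16 alternatives, each library left out (0 to 0) included, and with the counts of Actr3-ps added. The log2 fold changes of Actr3, Arpc1b, Arpc3, Arpc4 and Arpc5l kept their sign throughout, Arpc1b between 0.09 without cKO 4 and 0.28 on log2 TPM. Values near 0 changed sign. On log2 TPM with a pseudocount of 1 and of 0.1 these were Actr2 (0.014337 and 0.014451), Arpc1a (0.014589 and 0.014691), Arpc5 (0.027915 and 0.028091) and Cfl1 (0.021274 and 0.021286), and Arpc5 was at 0.000627 without a filter and 0.003820 with filterByExpr. With each library left out, Actr2 ranged from −0.045 to 0.018, Arpc1a from −0.038 to 0.011, Arpc2 from −0.022 to 0.035, Arpc5 from −0.024 to 0.050, Washc5 from −0.031 to 0.055, Washc2 from −0.014 to 0.055, Cdc42 from −0.067 to 0.00073 and Cfl1 from −0.033 to 0.033. The paralog ratios kept their sign, from 0.103 to 0.232 for Arpc1b to Arpc1a, −0.116 to −0.022 for Arpc5l to Arpc5 and −0.189 to −0.108 for Actr3b to Actr3. The number of called genes among the 60 around the complex was 1, but 8 in DESeq2 (Abi3, Actb, Actg1, Gmfg, Hcls1, Twf2, Wipf1 and Wipf3), 8 without a filter (Abi3, Coro1a, Gmfg, Hcls1, Rac2, Was, Wipf1 and Wipf3) and 0 on log2 TPM with either pseudocount. Over all genes tested, DESeq2 called 3.23%, the fit without a filter 2.62%, and log2 TPM 1 gene with a pseudocount of 1 and 7 genes with 0.1. The log2 fold change of Actr3b stayed negative and was called in DESeq2 and without cKO 3 alone. The number of called genes among the 60 ranged from 0 to 9 with each library left out. It was 0 without cKO 1 or control 1, 3 or 4, 2 without cKO 2 or control 2, and 9 without cKO 3. The cause of this range was not tested. Replicate numbers were not used for pairing, since the correlations of same-numbered libraries over 14302 genes were −0.19, −0.03, 0.01 and −0.14. With the replicate number as a block, 0 members and 2 of the 60 genes (Abi3 and Coro1a) were called, and the ratio of Arpc1b to Arpc1a had an exact sign-flip p of 0.250. That sign-flip test has too few pairs to reach a p under 0.05.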
